A study of Homo sapiens with 16 samples.

Results

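Integrins are cell surface receptors built from 1 α and 1 β subunit, and the 10 subunit genes described here (ITGA2, ITGA3, ITGA5, ITGA6, ITGAV, ITGB1, ITGB3, ITGB4, ITGB5 and ITGB8) were taken by symbol from the 26485 genes of a count table, read over all of its 16 libraries. The libraries hold total RNA from PC3 cells, a prostate cancer line, and HeyA8 cells, an ovarian cancer line, both with wild-type genotype. In each line, 1 library at 24 h and 1 at 48 h came from mock-treated cells and from cells transfected with siNT1, siGGGGGC or siCAG, 8 libraries per line. siNT1 is a non-targeting control siRNA, siGGGGGC carries the seed GGGGGC at positions 2 to 7 of its guide strand, and the make-up of siCAG is not given in the sources used here. The sample labels give 1 nM of siRNA and the methods of the study 10 nM, so the dose is uncertain. Depth was even, with 27937092 to 31790209 reads on genes per library. Because each condition had 1 library per time, the 24 and 48 h libraries served as its 2 replicates. In the main fits the shared difference between 24 and 48 h was taken out. The p-values rest on the spread that remained, estimated over all libraries of the fit. No condition was repeated at the same time, so this spread does not measure variation between repeat cultures.

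An integrin α subunit largely sets which matrix protein is bound, and it must pair with a β subunit to leave the endoplasmic reticulum and reach the surface. ITGB1 is the common partner of many α subunits, whereas ITGAV also pairs with ITGB3, ITGB5 and ITGB8, and ITGA6 pairs with ITGB4 in hemidesmosomes, which anchor epithelial cells to the basement membrane. Ligand-bound integrins connect the matrix to actin through talin and related adaptors and signal through focal adhesion kinases, which cancer cells use for attachment, migration and survival.

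The study asked which mRNAs fall when a toxic seed is introduced, so the matches to the siGGGGGC seed, GCCCCC, were first located in the longest annotated 3′ UTR of each subunit (GENCODE v44, hg38). A match counted as a 7mer-A1 when followed by A, a 7mer-m8 when preceded by T, an 8mer when both applied and a 6mer otherwise, on the transcribed strand only. At least 1 GCCCCC lay in the 3′ UTR of 30.2% of 19225 protein-coding genes, and at least 2 lay in 12.9%. Of the 10 subunits, 5 had a match and 5 (ITGA6, ITGAV, ITGB1, ITGB4 and ITGB8) had none. ITGA5 and ITGB5 each had 2, of which 1 was a 7mer-A1 and 1 an 8mer. These 4 matches are printed because both genes carried the same kinds of match in the 3′ UTR and differed in direction after siGGGGGC, and the single match of ITGA2 is printed because ITGA2 fell as well; capitals mark GCCCCC within 12 bases on each side.
ITGA5 7mer-A1: gatccaaaagaaGCCCCCagctaagaacct
ITGA5 8mer: atctgacccagtGCCCCCactgaccagaac
ITGB5 7mer-A1: caggaatgctggGCCCCCagcctggccaga
ITGB5 8mer: acttaaaatggtGCCCCCagtggggattga
ITGA2 7mer-A1: ctctgttcctgaGCCCCCacattctctagg

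On hg38 the ITGA5 matches lie on the minus strand of chromosome 12 at 54395862 to 54395867 and at 54395278 to 54395283, in a 3′ UTR of 1032 bases, and the second ends 17 bases before the annotated end of that UTR. The ITGB5 matches lie on the minus strand of chromosome 3 at 124763284 to 124763289 and at 124762900 to 124762905, the second 952 bases before the end of a UTR of 1675 bases. The ITGA2 match lies on the plus strand of chromosome 5 at 53092142 to 53092147, in a UTR of 4180 bases. ITGA3 had 5 matches in a UTR of 1403 bases, 3 of them 6mers, but 0 in the UTR of the transcript with its longest coding sequence, so the number depends on which ITGA3 transcript the cells make. The 1 match of ITGB3, a 7mer-m8, lies beyond the end of the gene as counted in the table. In the coding sequence of the same transcripts GCCCCC occurred 8 times in ITGA3, 2 times in ITGA5, 1 time in ITGB3 and 0 times in the other 7, ITGB5 and ITGA2 included.

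**Figure D1:**
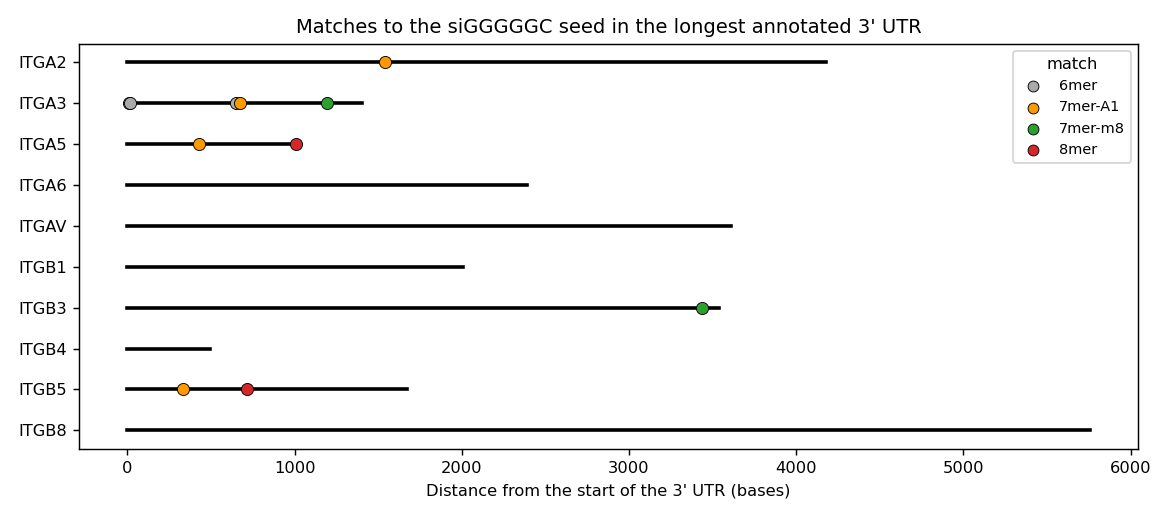
Position of each GCCCCC along the longest annotated 3′ UTR of the 10 subunits, as distance in bases from the start of the UTR (x axis), with each line drawn to the length of its UTR and points coloured by the kind of match. ITGA5 and ITGB5 have 1 7mer-A1 and 1 8mer each, ITGA3 has 5 matches, and 5 subunits have none.

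Before the comparisons, the libraries were checked against their labels and against each other. HOXB13, a prostate transcription factor, had 2400 to 15762 reads in PC3 and 10 to 71 in HeyA8 libraries, and PAX8, a marker of ovarian carcinoma, had 1838 to 6680 in HeyA8 and 44 to 192 in PC3 libraries. Other defining markers were absent, since KLK3 and KLK2 were at 0 in all PC3 libraries and MUC16 had at most 5 reads in any HeyA8 library. Of the leukocyte markers, CD3E was at 0 in all 16 libraries and PTPRC had at most 12 reads. The list summed to 1 to 23 reads per library except for 58 in PC3 after siGGGGGC at 48 h, all of them CD14. The 3 endothelial markers, mostly CDH5, summed to 216 and 323 reads in HeyA8 after siCAG, 126 and 142 after siNT1, 186 and 268 after siGGGGGC and 110 and 287 in mock-treated cells (24 and 48 h), and their part in the results was not tested. The 2 HeyA8 siCAG libraries stood apart from each other, with 28.2% of 13872 genes differing over 2-fold between 24 and 48 h, against 4.48% to 12.3% in the other 7 pairs. Their spread enters every HeyA8 test, so the siGGGGGC values in HeyA8 are also given from a fit without them, an alternative chosen after seeing the data.

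The lines used different sets of subunits. Per kb of the reference transcript, on the scale of CPM (the read count scaled to library size) divided by its length, ITGB1 was the most abundant subunit in both mock-treated lines, with 497 and 393 in PC3 and 401 and 357 in HeyA8 at 24 and 48 h. In PC3, ITGA3 (384 and 266) followed and ITGA6 (69.8 and 86.6) came next, both laminin receptors, whereas in HeyA8 ITGA6 (337 and 319) exceeded ITGA3 (170 and 167). ITGA5, the α subunit of the classical fibronectin receptor, stood at 15.6 and 14.3 in PC3 and 50.7 and 52.4 in HeyA8. In mock-treated PC3 the level of ITGA5 lay next to those of ITGB5 (14.8 and 15.3) and ITGAV (17.4 and 14.0), and these ranges overlapped. ITGB3 and ITGB8 were the least abundant in PC3, at 0.24 to 0.25 and 2.93 to 4.08.

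**Figure D2:**
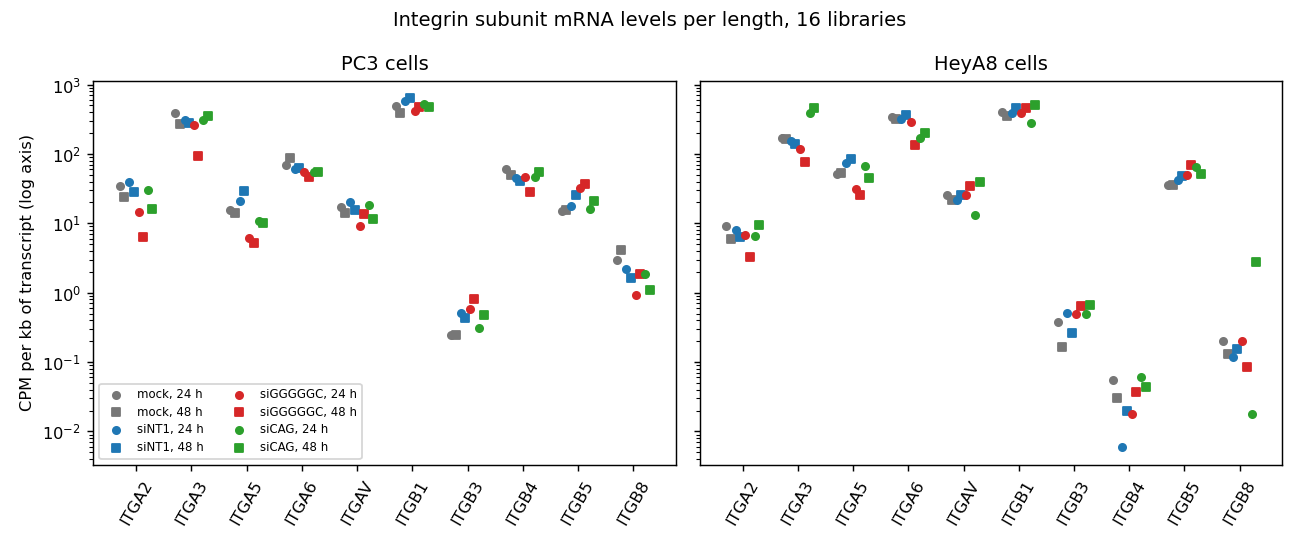
CPM per kb of transcript (log axis) of the 10 subunits in PC3 (left) and HeyA8 (right), 1 point per library, coloured by treatment, with circles for 24 h and squares for 48 h. ITGB1 is at the top in mock-treated cells of both lines, and ITGB4 is below 0.1 in all HeyA8 libraries but between 27.9 and 60.7 in PC3.

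Among 15887 genes tested between mock-treated PC3 and HeyA8 cells with edgeR, 25.6% were higher and 19.9% lower in PC3 at an adjusted p under 0.05. Of the 10 subunits, 4 were higher and 3 lower. Because the time term of each line was shared by its 8 libraries with 24 h as the reference, these values are the fitted difference at 24 h. ITGB4, the hemidesmosome subunit, had 11596 and 10040 reads in mock-treated PC3 and 9 and 5 in HeyA8, a fitted log2 fold change of 10.41 (SE 0.50, adjusted p = 4.2e-07). ITGB8, which pairs with ITGAV, had 852 and 1239 reads in PC3 and 50 and 32 in HeyA8 (4.69, SE 1.39, adjusted p = 0.017). The collagen receptor subunit ITGA2 was 2.14 higher (SE 0.36, adjusted p = 0.00070) and ITGA3 1.07 higher (SE 0.36, adjusted p = 0.031). Lower in PC3 were ITGA6 (-2.20, SE 0.34, adjusted p = 0.00035), ITGA5 (-1.89, SE 0.27, adjusted p = 0.00023) and the vitronectin receptor subunit ITGB5 (-1.37, SE 0.24, adjusted p = 0.0010). ITGB1, ITGAV and ITGB3 had log2 fold changes of 0.37, -0.30 and -0.37 and did not pass the test. Taken directly from the mock libraries at 24 and 48 h, the log2 ratios were 0.31 and 0.14 for ITGB1, -0.56 and -0.61 for ITGAV and -0.62 and 0.59 for ITGB3, so ITGB3 changed sign with time. As the mean over both times, an alternative chosen after seeing the data, the same 7 subunits passed, and ITGB1, ITGAV and ITGB3 were at 0.20, -0.65 and -0.11. Leaving out any of the mock libraries ended the call of ITGA3 (largest adjusted p 0.19), and leaving out any but the PC3 library at 48 h ended that of ITGB8 (largest 0.091).

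ITGA5 fell after siGGGGGC. In PC3 its level was 90.4 CPM at 24 h and 123 CPM at 48 h after siNT1, and 26.4 and 21.8 CPM after siGGGGGC. Mock-treated PC3 cells had 66.4 and 60.7 CPM, and cells given siCAG had 45.2 and 43.3 CPM. Both siGGGGGC libraries were thus below the other 6 PC3 libraries, and both siNT1 libraries were above them. Against siNT1 the fitted log2 fold change was -2.15 (SE 0.20, adjusted p = 0.0070), and it was -1.40 against mock. At this threshold edgeR called 6.00% of 15136 genes lower and 3.67% higher in PC3. ITGA5 was the 98th lowest of these genes by fold change. Without the siNT1 library at 24 h or that at 48 h the adjusted p of ITGA5 was 0.051 and 0.0996, and in both fits edgeR called 0 genes.

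In HeyA8, ITGA5 stood at 319 and 361 CPM at 24 and 48 h after siNT1 and at 134 and 110 CPM after siGGGGGC. Mock-treated cells had 215 and 223 CPM, and siCAG 289 and 190 CPM. Here too both siGGGGGC libraries were below the other 6, with a fitted log2 fold change of -1.52 against siNT1 (SE 0.25, adjusted p = 0.15) and -0.88 against mock. No gene passed the test in this comparison: edgeR called 0 of 13872 (0% lower and 0% higher), 1352 had an unadjusted p under 0.05, and DESeq2 called 318. ITGA5 was among the calls of DESeq2 (adjusted p = 4.2e-05). With edgeR it passed in a fit of the 4 compared libraries alone (-1.51, adjusted p = 2.4e-07, 1180 genes called) and when the siCAG libraries were left out (-1.51, adjusted p = 0.0050, 477 genes called). Here and below, a fit of 4 libraries leaves very few residual degrees of freedom, so its p-values and calls are poorly fixed. The log2 fold changes of ITGA5 in PC3 and HeyA8 differed by -0.64 (SE 0.34, adjusted p = 0.80). This test of the difference between lines called 0 of 15887 genes (0%), with 1054 at an unadjusted p under 0.05 and 15 called by DESeq2.

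The size of the ITGA5 change depended on the control, because ITGA5 was higher after siNT1 than in mock-treated cells at both times in both lines. The log2 fold change of siNT1 against mock was 0.75 in PC3 (SE 0.19, adjusted p = 0.24) and 0.64 in HeyA8 (SE 0.25, adjusted p = 1). In HeyA8 it passed in a fit of the 4 compared libraries alone (0.64, adjusted p = 3.8e-11, 1574 genes called) and not without the siCAG libraries (0.64, adjusted p = 0.49). With all 8 libraries of a line neither passed, in a test where edgeR called 0.231% of genes in PC3 and 0% in HeyA8, where 177 genes had an unadjusted p under 0.05 and DESeq2 called 1. Of the subunits, edgeR called 0 in either line, 4 in PC3 and 1 in HeyA8 had an unadjusted p under 0.05, and DESeq2 called 0 in both.

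**Figure D3:**
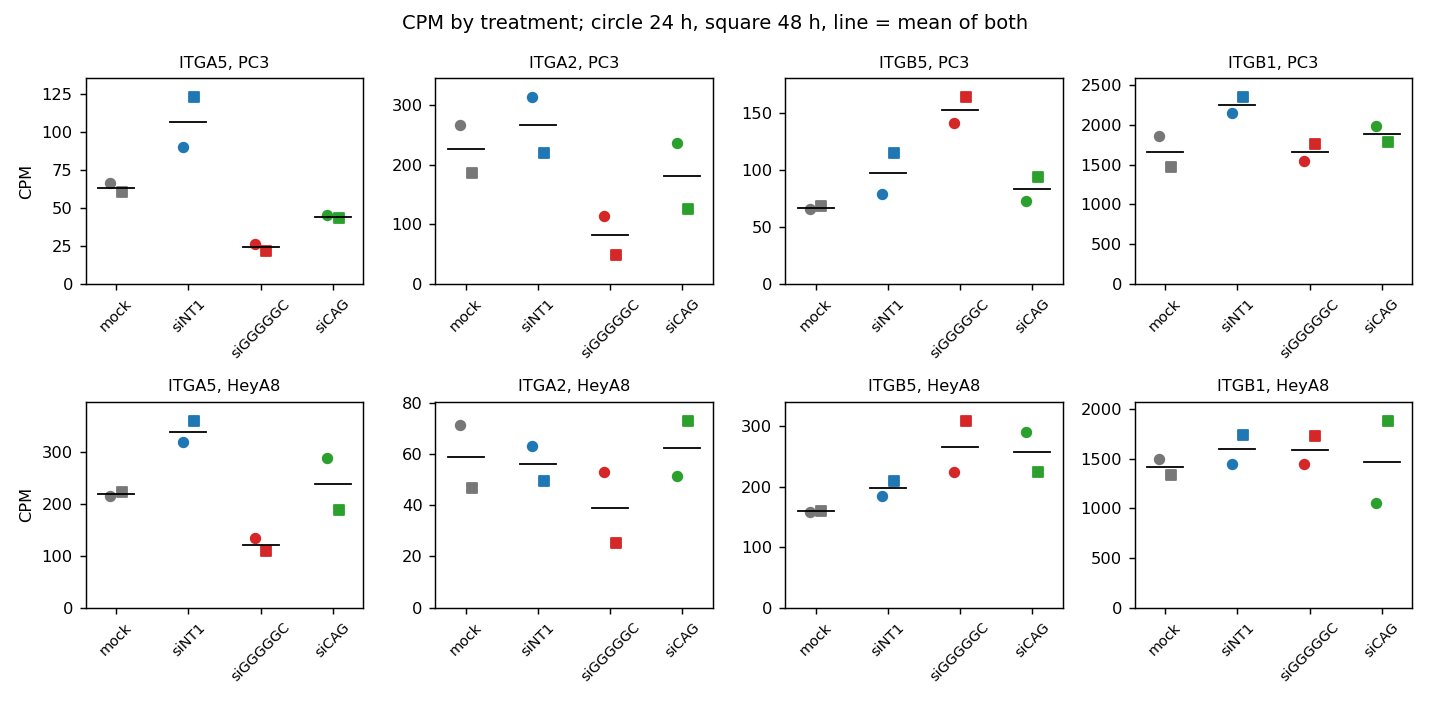
CPM of ITGA5, ITGA2, ITGB5 and ITGB1 by treatment in PC3 (top) and HeyA8 (bottom), each axis starting at 0, with 1 point per library (circle 24 h, square 48 h) and a line at the mean of both. ITGA5 is lowest after siGGGGGC in both lines (21.8 and 26.4 CPM in PC3, 110 and 134 CPM in HeyA8), whereas ITGB5 is highest after siGGGGGC in PC3.

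Of the other α subunits, ITGA2 fell with ITGA5 in PC3. Its level was 314 and 219 CPM after siNT1, 114.5 and 49.2 CPM after siGGGGGC, 268 and 186 CPM in mock-treated cells and 237 and 126 CPM after siCAG, at 24 and 48 h. Both siGGGGGC libraries were below all others, and the log2 fold change against siNT1 was -1.80 (SE 0.20, adjusted p = 0.0083). Without the siNT1 library at 24 h the adjusted p was 0.051, without that at 48 h it was 0.13, and without a time term it was 0.063. In HeyA8, ITGA2 was 63.0 and 49.4 CPM after siNT1 and 52.8 and 25.3 CPM after siGGGGGC (-0.60, SE 0.39, adjusted p = 0.68, and 0.11 without the siCAG libraries). When single libraries were left out, ITGA2 in HeyA8 ranged from -1.13 to -0.17. The difference between the lines for ITGA2 was -1.21 (SE 0.45, adjusted p = 0.73) and did not pass. It ranged from -1.62 to -0.71 when single libraries were left out.

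For the laminin receptor subunits, ITGA3 in PC3 and ITGA6 in HeyA8 had a larger gap to siNT1 at 48 h than at 24 h, which with 1 library per time was not tested. ITGA3 in PC3 had 1515 and 1362 CPM at 24 and 48 h after siNT1 and 1257 and 462 CPM after siGGGGGC, so the 48 h library alone was far below the control. In HeyA8, ITGA6 had 1869 and 2121 CPM after siNT1 and 1704 and 780 CPM after siGGGGGC, again with the gap at 48 h. With both times together neither passed (ITGA3 in PC3 -0.86, SE 0.32, adjusted p = 0.12, and ITGA6 in HeyA8 -0.75, SE 0.36, adjusted p = 0.56). Without the siGGGGGC library at 24 h the value of ITGA3 in PC3 was -1.54 (adjusted p = 0.0034), and without that at 48 h it was -0.36. ITGA6 in HeyA8 was likewise -1.47 without the siGGGGGC library at 24 h and -0.17 without that at 48 h. ITGA3 in HeyA8 and ITGA6 in PC3 had log2 fold changes of -0.60 and -0.29 and did not pass, although ITGA6 in PC3 was -0.63 against mock (adjusted p = 0.033). By time, ITGA3 in HeyA8 was at -0.36 and -0.83 and ITGA6 in PC3 at -0.12 and -0.45. In a fit of the 4 compared HeyA8 libraries ITGA6 (-0.82, adjusted p = 0.0091) and ITGA3 (-0.62, adjusted p = 0.018) passed, and without the siCAG libraries they did not (adjusted p = 0.16 and 0.087). ITGAV, which binds vitronectin and fibronectin, was -0.60 in PC3 (SE 0.29, adjusted p = 0.20) and 0.28 in HeyA8 (SE 0.44, adjusted p = 0.90, and 0.31 without the siCAG libraries). In PC3 the gap of ITGAV lay at 24 h, and the value was -1.27 (adjusted p = 0.032) without the siGGGGGC library at 48 h and -0.11 without that at 24 h.

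Among the β subunits, ITGB5 rose in PC3; its 3′ UTR holds the same kinds of seed match as that of ITGA5, whereas its coding sequence has 0 and that of ITGA5 has 2. After siNT1 it was at 79.2 and 115 CPM, and after siGGGGGC at 141 and 164 CPM, while the mock libraries had 65.8 and 68.0 CPM and the siCAG libraries 72.5 and 93.5 CPM. The siGGGGGC libraries were above the other 6, and the log2 fold change was 0.66 against siNT1 (SE 0.16, adjusted p = 0.042) and 1.18 against mock. Among 968 genes with exactly 2 matches tested in PC3, the median log2 fold change was -0.11, 11.5% were lower, and 34 (3.51%) were higher, ITGB5 being 1 of these. The call of ITGB5 was the least firm of the 3, since its adjusted p was 0.11 in a fit of the 4 compared libraries alone, 0.098 without a time term and 0.059 without the siCAG libraries, and it reached 0.31 when single libraries were left out. In HeyA8, ITGB5 was 186 and 210 CPM after siNT1 and 224 and 309 CPM after siGGGGGC (0.39, SE 0.24, adjusted p = 0.66, and 0.15 without the siCAG libraries).

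ITGB1, the partner of ITGA2, ITGA3 and ITGA5, did not pass in either line. It had 2146 and 2349 CPM after siNT1 and 1551 and 1758 CPM after siGGGGGC in PC3 (-0.44, SE 0.17, adjusted p = 0.12), where the mock libraries had 1856 and 1469 CPM. In HeyA8 it had 1450 and 1736 CPM after siNT1 and 1450 and 1731 CPM after siGGGGGC (-0.03, SE 0.27, adjusted p = 0.99, and 0.92 without the siCAG libraries). ITGB4 and ITGB8 in PC3 were at -0.23 and -0.46, and ITGB3 was at 0.55 in PC3 and 0.57 in HeyA8, none of which passed. When single libraries were left out, ITGB3 ranged from 0.24 to 0.86 in PC3 and from 0.098 to 1.04 in HeyA8. By time, its log2 ratio in HeyA8 was -0.073 at 24 h and 1.29 at 48 h. Against mock, ITGB3 in PC3 was 1.49 (adjusted p = 0.017). Without the siCAG libraries ITGB3 and ITGB8 in HeyA8 had adjusted p of 0.39 and 0.96. ITGB3 rested on 27 to 155 reads per library, and ITGB4 in HeyA8 (1 to 9 reads) was too low to test. Over the 10 subunits in PC3 the median log2 fold change was -0.45, beside 0.0029 over all genes tested, and over the 9 tested in HeyA8 it was -0.03, beside 0.0040.

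**Figure D4:**
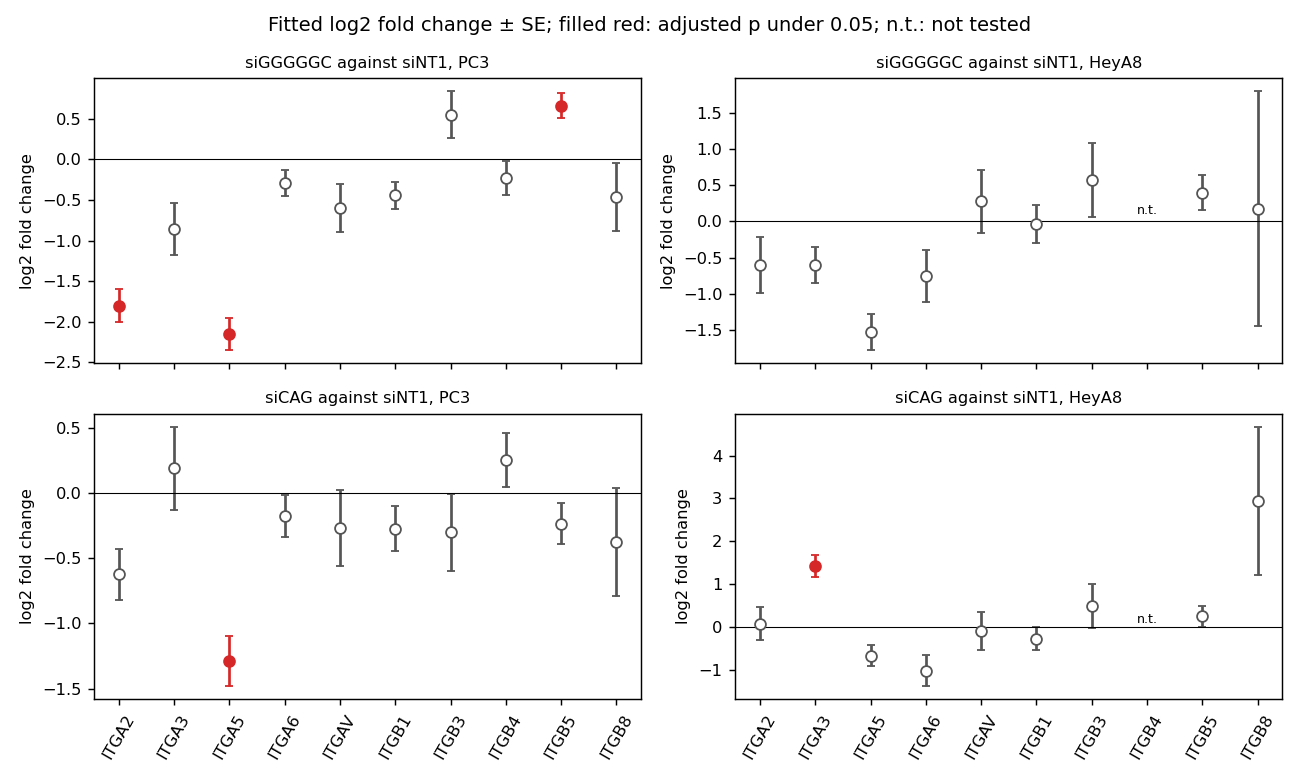
Fitted log2 fold change of each subunit with its SE (y axes differ between panels) after siGGGGGC (top) and siCAG (bottom) against siNT1 in PC3 (left) and HeyA8 (right), with filled red points for an adjusted p under 0.05 and n.t. for a gene not tested. After siGGGGGC in PC3, ITGA5 and ITGA2 lie at -2.15 and -1.80 and ITGB5 at 0.66, and ITGA5 is the lowest subunit in HeyA8 as well.

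Relative to its partner, ITGA5 message was scarcer after siGGGGGC in each line. On the per kb scale, ITGA5 made up 3.70% and 4.61% of the level of ITGB1 in PC3 at 24 and 48 h after siNT1, and 1.49% and 1.09% after siGGGGGC. Mock-treated PC3 had 3.14% and 3.63%. In HeyA8 the ratio was 19.3% and 18.3% after siNT1, 8.13% and 5.57% after siGGGGGC and 12.6% and 14.7% in mock-treated cells. The siGGGGGC libraries were the lowest in both lines. After siCAG the ratio was 1.998% and 2.13% in PC3 and 24.1% and 8.87% in HeyA8, where the 24 h library was the highest of the line. Summed per kb, the 5 α subunits came to 451 and 415 after siNT1 and 342 and 166 after siGGGGGC in PC3, and to 580 and 619 against 476 and 275 in HeyA8. The 5 β subunits came to 641 and 697 against 496 and 538 in PC3 and to 431 and 513 against 439 and 534 in HeyA8. At 48 h after siGGGGGC the α sum was therefore the lowest of its line in both lines.

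After siCAG, edgeR called 1.16% of genes lower and 0.0396% higher in PC3, and 1 subunit was among them. ITGA5 had a log2 fold change of -1.29 (SE 0.19, adjusted p = 0.021) against siNT1. Against mock it was -0.53 (adjusted p = 0.16), and without the siNT1 library at 48 h it was -0.96 (adjusted p = 0.49). Without the siCAG library at 24 or 48 h the adjusted p was 0.084 and 0.30. ITGA2 followed with -0.63 (SE 0.19, adjusted p = 0.21, and 0.0036 with only the compared libraries), and the other 8 had values between -0.38 and 0.25. The siGGGGGC and siCAG comparisons share their siNT1 libraries.

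In HeyA8, ITGA3 rose after siCAG. It was at 751 and 673 CPM after siNT1 and at 1929 and 2219 CPM after siCAG, above all other HeyA8 libraries (379 to 830 CPM). Its log2 fold change was 1.43 (SE 0.25, adjusted p = 0.028), in a comparison where 2.88% of genes were higher and 4.93% lower. ITGA3 was the single subunit called, and it was 1.69 (adjusted p = 0.0012) without the siCAG library at 24 h and 1.12 (adjusted p = 0.0058) without that at 48 h. Its adjusted p rose to 0.20 or 0.28 without 1 of the siNT1 libraries. ITGA6 went the other way, from 1869 and 2121 CPM to 986 and 1171 CPM, but did not pass (-1.01, SE 0.36, adjusted p = 0.12), except without the siCAG library at 48 h (-1.39, adjusted p = 0.029). ITGA5 had a log2 fold change of -0.66 against siNT1 (SE 0.25, adjusted p = 0.13) and -0.023 against mock (adjusted p = 0.96), and without the siCAG library at 24 h it was -0.92 against siNT1 (adjusted p = 0.011).

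On the per kb scale ITGA3 stood at 0.48 and 0.38 times ITGA6 after siNT1, at 0.50 and 0.52 in mock-treated cells, at 0.41 and 0.58 after siGGGGGC and at 2.33 and 2.25 after siCAG. The 2 siCAG libraries thus had the reverse order of these α subunits from the other 6. ITGA3 made up 60.6% of the α sum in both siCAG libraries and 22.2% to 29.5% in the other HeyA8 libraries. In PC3, where ITGA3 exceeded ITGA6 in every library, its log2 fold change after siCAG was 0.19, and the difference between the lines for ITGA3 was -1.35 (SE 0.45, adjusted p = 0.21). That test called 0.636% of genes and 0 subunits, of which 3 had an unadjusted p under 0.05.

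Other subunits differed between the HeyA8 siCAG libraries. ITGB8 had 4 reads at 24 h and 674 at 48 h, against 21 to 51 in the other HeyA8 libraries (log2 fold change 2.94, SE 1.72, adjusted p = 0.30). ITGAV was at 92.3 CPM at 24 h and 278 CPM at 48 h, the lowest and the highest HeyA8 values. ITGB1 likewise had its lowest (1053 CPM) and highest (1880 CPM) HeyA8 values in this pair. The longest run of CTG, the complement of CAG, was 4 units in the ITGA3 transcripts, 3 in those of ITGA2, ITGA5 and ITGA6 and at most 2 in the rest, and 3.02% of genes had a run of at least 4.

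**Figure D5:**
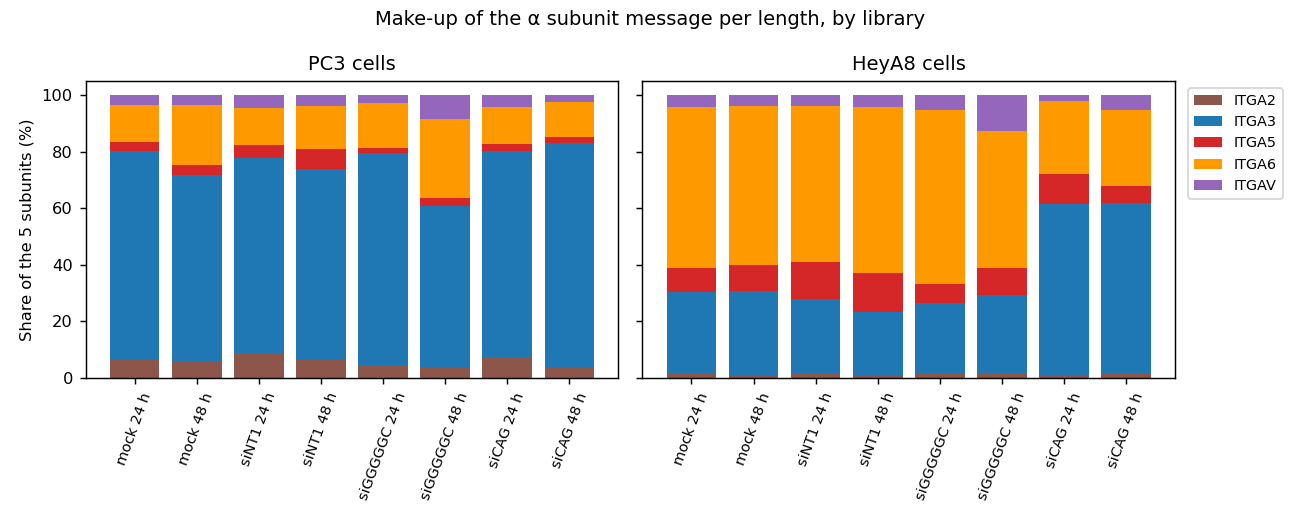
Share in percent of each α subunit in the summed CPM per kb of ITGA2, ITGA3, ITGA5, ITGA6 and ITGAV, 1 bar per library, PC3 left and HeyA8 right. ITGA3 takes 56.9% to 79.4% in PC3 and 22.2% to 29.5% in HeyA8, except for 60.6% in both HeyA8 siCAG libraries.

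Around the integrins, of 85 genes for matrix ligands, adaptors, signalling proteins, inhibitors of activation, tetraspanins with hemidesmosome proteins, and trafficking, 82 were tested in PC3, and after siGGGGGC 5 were lower and 6 higher (median log2 fold change -0.07), beside 6.00% lower and 3.67% higher over all genes tested, which is a description and no test of the list. ZYX, zyxin of focal adhesions, fell (-1.88, SE 0.26, adjusted p = 0.013), as did GIT1, a focal adhesion scaffold (-1.42, SE 0.19), TNS2, a tensin that links β subunits to actin (-1.07), KRIT1, a partner of an integrin regulator (-1.15), and EDIL3, a ligand of ITGAV integrins (-1.09). Higher were the matricellular ligands CTGF (2.32, SE 0.46) and CYR61 (1.25, SE 0.26), the adaptor LIMS2 (1.05), TLN2, a talin that activates integrins (0.86), the GTPase CDC42 (0.84) and the adaptor CRKL (0.81). Without either siNT1 library all 11 lost their calls, as edgeR then called 0 genes. Without the siGGGGGC library at 48 h, CYR61, LIMS2, TLN2, CDC42, CRKL, TNS2 and EDIL3 lost their calls, with TLN2 at 0.55, CRKL at 0.46 and LIMS2 at 0.69. CTGF was at 1.25 without that library and at 3.04 without the siGGGGGC library at 24 h, and CYR61 was at 2.23 against mock. With only the compared libraries, LIMS2, TLN2, CDC42, CRKL, TNS2, KRIT1 and EDIL3 lost their calls. The value of CDC42 rested on its control, since it had 346 and 412 CPM after siGGGGGC, 220 and 200 CPM after siNT1 and 373 and 418 CPM in mock-treated PC3, and the siGGGGGC and mock libraries overlapped (-0.061 against mock, adjusted p = 0.80). In HeyA8 ZYX was at -2.02 (SE 0.33, adjusted p = 0.15) and GIT1 at -1.12 (SE 0.28, adjusted p = 0.29), and without the siCAG libraries both passed (adjusted p = 0.014 and 0.036). In their 3′ UTRs ZYX and TNS2, which fell, and CDC42, which rose, had 2 GCCCCC each, GIT1, which fell, and LIMS2, which rose, had 1, and KRIT1, EDIL3, TLN2 and CRKL had 0. CTGF and CYR61 were not matched to the annotation by symbol.

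After siGGGGGC in HeyA8, where no gene passed, edgeR called 0 of 79 list genes, with 10 at an unadjusted p under 0.05 and 4 called by DESeq2. After siCAG in PC3, beside 1.16% lower and 0.0396% higher over all genes, it called 0 of 82, with 9 and 3. After siCAG in HeyA8, beside 4.93% lower and 2.88% higher over all genes, it called 2 of 79, with 22 and 13. TGFB1, whose latent form is bound by ITGAV integrins, fell (-3.04, SE 0.36, adjusted p = 0.0087), and MFGE8, a ligand of ITGAV integrins, rose (1.15, SE 0.26, adjusted p = 0.045). Both calls ended without the siNT1 library at 24 h or that at 48 h (adjusted p of 0.076 and 0.073 for TGFB1 and of 0.27 and 0.41 for MFGE8), and that of MFGE8 also with only the compared libraries (0.14). Of the other 16 integrin subunits in the table, 10 were tested in PC3 and 7 in HeyA8, and ITGB2, the leukocyte β subunit, was higher after siGGGGGC in PC3 (0.79, SE 0.18, adjusted p = 0.040). Its adjusted p was 0.085 without a time term, 0.11 with only the compared libraries, 0.19 and 0.35 without the siNT1 library at 24 or 48 h, and 0.074 without the siGGGGGC library at 48 h. It had 426 and 469 reads after siNT1, 710 and 854 after siGGGGGC, 461 and 558 in mock-treated cells and 521 and 758 after siCAG, so the siGGGGGC and siCAG libraries overlapped. The leukocyte markers summed to 18 and 14 reads after siNT1, 7 and 58 after siGGGGGC, 23 and 11 in mock-treated cells and 10 and 9 after siCAG, and their part in the result was not tested.

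Over the 16 libraries, with each line centred on its own mean, the log2 level of ITGA2 had the highest correlation with that of ITGA5 among the 9 other subunits (Pearson r = 0.73), followed by ITGA6 (0.48) and ITGA3 (0.47). ITGB1 was at 0.21, and ITGB5 (-0.48) and ITGB3 (-0.45) were negative. Among 4969 abundant genes the pattern most like that of ITGA5 was found for FAM189B (r = 0.93), ARHGDIA (0.91), ATXN7L3 (0.91), KLC2 (0.90) and SHISA5 (0.89). The points are libraries that share treatments and times, so these values are a description. In PC3 the 5 genes had log2 fold changes after siGGGGGC of -2.30, -2.64, -0.91, -0.95 and -1.06 in the same order, beside -2.15 for ITGA5. They were picked for likeness to ITGA5 over these same libraries, so the direction of these values is no separate result.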

How the data were processed

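Total RNA libraries (TruSeq Total RNA with ribosomal RNA removal) were made from PC3 and HeyA8 cells. Per the study's methods the authors used Trimmomatic for trimming, mapped to hg38, and assigned reads in exons to genes by htseq; the submitters' processing notes name STAR and HTSeq. The strand setting of the counting is not given in the sources used here, so reads of overlapping antisense genes cannot be told apart; annotated antisense or neighbouring exons overlap ITGB3 most (2266 bases) and ITGA5 by 48 bases. The deposited values are raw counts, without normalization, for 26485 genes; 0 columns belonged to no sample, and siGGGGGC appears as siMxy in the sample titles. The authors also deposited a gene length column, which was not used for levels.

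Groups were compared in R 4.3.3 by edgeR 4.0.16 (filterByExpr, TMM, quasi-likelihood model with siRNA and time, all 8 libraries of a line, or all 16 for comparisons between lines). SE was the absolute log2 fold change divided by the square root of F. P-values were adjusted by the Benjamini-Hochberg method over all genes tested. CPM values used TMM factors over all 16 libraries, and levels per kb divided them by the length of the MANE Select transcript of GENCODE v44. Alternatives were DESeq2 1.42.0, RLE size factors, no filter, no time term, the compared libraries only, mock as control, leaving out single libraries and, chosen after seeing the data, leaving out siCAG or, between lines, the mean over both times. The scripts were tested on simulated data.

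The subunits, gene lists and tests were chosen with earlier results of these data known. All 10 subunits are named, with list genes at an adjusted p under 0.05 after siGGGGGC or siCAG against siNT1. Also named are the 5 genes most correlated with ITGA5 among those with a mean over 1000 normalized counts in both lines. For siNT1 against mock in PC3, edgeR called 1 of 82 list genes, a matrix ligand that was higher and is not named. The separate values of 1 leukocyte marker are not reported here.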

Additional observations from a re-analysis of the deposited data

Results flagged for a closer look

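ITGAV lay on opposite sides of siNT1 after siGGGGGC, lower at both times in PC3 and higher at both times in HeyA8. Neither line's own value passed edgeR's test (adjusted p = 0.20 in PC3 and 0.90 in HeyA8). In PC3 the gap to siNT1 was -1.14 at 24 h and -0.17 at 48 h on the log2 scale. Beside mock the direction in HeyA8 changed with time, with 178 and 244 CPM after siGGGGGC and 181 and 150 CPM in mock-treated cells. The PC3 values were 63.9 and 96.8 CPM after siGGGGGC and 122 and 98.5 CPM in mock-treated cells. The log2 fold changes differed by -0.90 (PC3 minus HeyA8), which did not pass edgeR's test of the difference (adjusted p = 0.83).

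ITGB5 lay on opposite sides of siNT1 after siCAG, lower at both times in PC3 and higher at both times in HeyA8. The difference of -0.61 (PC3 minus HeyA8) did not pass (adjusted p = 0.40). Neither line's own value passed (-0.24, SE 0.16, in PC3 and 0.26, SE 0.24, in HeyA8). Beside mock, ITGB5 after siCAG was higher at both times in both lines. It had 72.5 and 93.5 CPM beside 65.8 and 68.0 CPM in PC3, and 291 and 225 CPM beside 159 and 160 CPM in HeyA8. Each condition had 2 libraries, and outlying libraries were not formally tested for.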

How the results depend on the processing

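The 16 libraries give 2 per condition, at different times, so the spread and the calls are poorly fixed, and low subunits (ITGB3, ITGB8, and ITGB4 in HeyA8) rest on few reads. Alternative log2 fold changes were tallied for all tested subunits in siGGGGGC against siNT1. In the other comparisons only ITGA5 and subunits with an unadjusted p under 0.05 were included. Values left out include ITGB8 after siCAG in HeyA8, with a log2 ratio of -2.68 at 24 h and 4.17 at 48 h. Over the 444 alternative values in the tally, 397 kept direction and side of the threshold, 24 lost and 13 gained a call, and 10 changed sign. None of the sign changes was in a called value: against mock, ITGB1 was 0.0010 in PC3 and 0.11 in HeyA8, and ITGB8 in HeyA8 was -0.18 against mock, -0.051 with only the compared libraries and -0.050 without the siCAG libraries. When single libraries were left out, ITGB8 ranged from -1.60 to 1.30 in HeyA8 and from -1.24 to 0.13 in PC3, ITGB4 in PC3 from -0.57 to 0.015, and ITGB1 in HeyA8 from -0.091 to 0.018. ITGA5 after siGGGGGC stayed negative in all alternatives (-2.43 to -1.40 in PC3, -1.74 to -0.88 in HeyA8). Named list genes were tallied only in comparisons where they were called, with ZYX and GIT1 after siGGGGGC in HeyA8 added. Over these 174 alternative values, 113 kept direction and side, 54 lost and 6 gained a call, and 1 changed sign (CDC42 in PC3, -0.061 against mock).

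Counts of called genes moved more. For siGGGGGC in PC3, 1463 became 625 without a time term, 2819 with DESeq2, 438 with only the compared libraries and 3200 against mock (0 to 3702 without single libraries). In HeyA8, 0 became 18 without the filter, 3 without a time term, 318 with DESeq2, 1180 with the compared libraries and 477 without the siCAG libraries, an alternative chosen after seeing the data (0 without any single library). For siCAG in PC3, 182 became 572 (DESeq2), 2346 (compared libraries) and 391 (mock), or 30 to 125. In HeyA8, 1083 became 2657 (DESeq2) and 580 (compared libraries), or 42 to 4690. For siNT1 against mock in PC3, 35 became 82 without the filter, 6 without a time term, 268 (DESeq2), 253 (compared libraries) and 11 (without siCAG), or 0, and in HeyA8 0 became 1 (DESeq2) and 1574 (compared libraries). Between mock-treated lines, 7234 became 11108 with only those libraries, or 4325 to 5746. The difference between lines went from 0 to 15 (DESeq2) for siGGGGGC, and for siCAG from 101 to 51 (no time term), 671 (DESeq2), 0 (compared libraries), or 1 to 1520. The cause was not tested. The labels carry no replicate numbers, and the time term served as the block.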
